A study of Mus musculus with 9 samples.

Results

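The baseline of the study is the neonatal mouse aortic valve kept in culture with vehicle alone, and its transcriptome is described here from the 3 arrays titled as DMSO-treated, out of 9 arrays in the series. Genes were ranked by mean intensity over these 3 arrays and by their spread between them, and all 19934 genes that a probe set lists alone are accounted for. The valves came from C57BL/6J pups on postnatal day 1, with the valves of 5 to 6 pups pooled per array. They were kept on floating filters in DMEM with fetal bovine serum for 48 hours, with DMSO at a final concentration of 0.001%. The other 6 arrays of the series, 3 from pools given 1 µmol/L all-trans retinoic acid (ATRA) and 3 from pools given the retinoic acid receptor antagonist LE540, whose dose is not in the labels, are used only to show how far the same genes spread within those groups. No comparison between treatments was made.

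The labels call the 3 arrays biological replicates, but say neither whether the same replicate number marks a shared litter nor what sex the pups were. The spread between arrays therefore holds animal, dissection, culture and assay differences together. Each array is bulk tissue, so fewer cells of a type and less RNA per cell cannot be told apart. A tissue kept in serum for 48 hours is a culture model, and uncultured valve was not among these arrays.

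Aortic valve leaflets are thin sheets of connective tissue. Valve interstitial cells, which are fibroblast-like, lay down layers rich in collagen, proteoglycan or elastin, and valve endothelial cells cover both faces. After birth the leaflets thin, elongate and stratify, while the interstitial cells divide less and turn to matrix remodelling. At its base the valve joins the aortic wall, with its smooth muscle, and the myocardium of the outflow tract.

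The deposited values are RMA intensities on a linear scale, and triplets of intensities are given in the order of replicates 1, 2 and 3. Probe sets differ in how well they bind their target, so a rank is one of probe-set brightness and not of transcript number. To separate signal from background, the 1231 measured genes of the chemosensory receptor families (odorant, vomeronasal and taste receptors), which are expressed mainly in sensory tissue, served as a reference. Their median intensity was 28.9 and their 95th percentile 94.6, and a gene counted as above the background when all 3 arrays exceeded 94.6. This held for 11995 of 19934 genes, or 60.2%. The 99th percentile of the receptor genes, 143, is used below as a stricter level, and 8886 genes (44.6%) exceeded it in every array. The median gene had an intensity of 138, the upper quartile of genes began at 328 and their 90th percentile was 791.

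The 3 arrays had median probe-set intensities of 126.1, 124.9 and 127.8. Over all 28270 probe sets, log2 intensities correlated at r = 0.985 between replicates 1 and 2, 0.990 between 1 and 3, and 0.986 between 2 and 3. Over the 19934 genes, replicate 2 stood farthest from the others. Its root mean square log2 difference from the mean of the other arrays was 0.302, against 0.252 for replicate 1 and 0.240 for replicate 3.

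The brightest probe sets included genes of translation, the cytoskeleton and the matrix. Ribosomal protein genes made up 23 of the 50 brightest genes, and 2 more of the 50 belonged to other passed-over classes (mitochondrial, histone and small RNA genes, and unnamed models). The brightest of the named probe sets, listed for Baiap2l1, had 11396, 11889 and 11529.5, and whether it also binds other transcripts could not be checked without probe sequences. Eef1a1, the translation elongation factor, followed with 11005, 11801 and 11396, and Sparc, a collagen-binding glycoprotein of the matrix, with 9593, 9314 and 10729.5. Tmsb10 and Lgals1, which encode an actin-sequestering peptide and a galectin, came next at 9723 ± 357 and 9629 ± 584 (mean ± SD, n = 3, as for all such values below). Of the 25 named brightest genes, Sparc and Mgp are secreted matrix proteins and Tnnt2 is the cardiac troponin T gene. Most of the others belong to the housekeeping machinery of any cell: Actb, Calm2, Myl6 and Cd63, the chaperones Hsp90b1, Hspa8 and Hspe1, the respiratory subunits Cox6c and Cox6b1, the redox and iron proteins Txn1 and Fth1, Tpt1, Srsf3, Taf1d, Rnf7 and Ube2d3, and the noncoding RNAs Malat1 and Gas5.

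**Figure D1:**
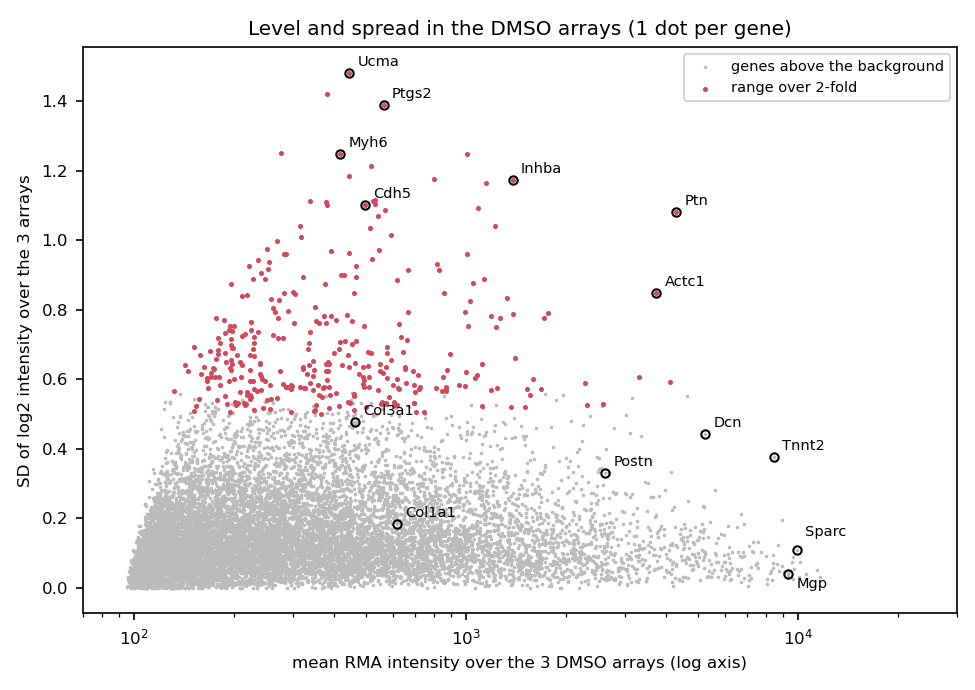
Each dot is 1 of the 11995 genes above the receptor background, with its mean RMA intensity over the 3 DMSO arrays (log axis) and the SD of its log2 intensity over the same arrays. Genes spanning over 2-fold are red. Mgp and Sparc are bright with little spread, while Ptn and Actc1 are bright and spread widely, and Ucma, Ptgs2, Myh6 and Cdh5 lie among the widest at moderate brightness.

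Markers of the main cell type of the valve, which is fibroblast-like, are described first. They were chosen with earlier results of these data known, so they are no check of the tissue label. All 12 marker genes of valve interstitial fibroblasts were above the background, all 12 in the upper quartile of genes and 8 above the 90th percentile, with a median intensity of 3613 against 138 over all genes. Mgp, matrix Gla protein, an extracellular inhibitor of calcification, had 9440.2, 9007 and 9457, which places it at the 99.9th percentile of genes. Vim, the intermediate filament of mesenchymal cells, had 6118, 6251 and 6611. S100a4, a calcium-binding protein of fibroblasts, had 6037, 5453 and 6962. For each of these genes the 3 pools were close to each other.

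Dpt, the collagen-associated dermatopontin, had 6035, 5259 and 5538. Postn, periostin, a matricellular protein of valve mesenchyme, had 2451, 3289.8 and 2095. Both were at or above the 98th percentile in brightness, and Postn was highest in replicate 2. Lum had 5357, 2836 and 5648 and Pdgfra, the receptor for platelet-derived growth factor on mesenchymal cells, 1663, 683 and 1007. Of the 12 markers, Pdgfra was the 1 that spanned over 2-fold, against 2.73% of all genes above the background, and 9 of 12 were lowest in replicate 2, where 36.1% of all genes were lowest.

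Collagen genes were all measured above the background but none was above the 90th percentile. All 21 collagens on the list exceeded 94.6 in every array, with a median of 317 and 10 of 21 in the upper quartile. The chains of type I collagen, the main load-bearing fibril, had 627, 538 and 693 for Col1a1 and 645, 564 and 766 for Col1a2. Col3a1, the type III chain that mixes into these fibrils, had 548, 305 and 536, lowest in replicate 2. The type VI chains Col6a1 and Col6a3, which form beaded microfibrils around cells, averaged 574 ± 37.4 and 565 ± 101. Col8a1, the short-chain collagen of vessel and valve tissue, was the 1 collagen to span over 2-fold, with 351, 359 and 761, highest in replicate 3. The list as a whole leaned the same way: 13 of 21 were highest in replicate 3, where 32.4% of all genes above the background were highest, and 12 of 21 were lowest in replicate 2, where 36.1% of all genes were lowest.

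The enzymes and chaperones that fold and crosslink collagen were brighter as a list, with 17 of 18 above the background and a median of 501. Ppib, the cyclophilin of the endoplasmic reticulum that helps procollagen fold, had 3574, 3194 and 3778. Plod2, the lysyl hydroxylase that acts on collagen telopeptides, had 2539, 1954 and 2918. Pcolce, the enhancer of procollagen C-proteinase, had 1859, 932 and 1971, with replicate 2 low and both others close together. Lox, lysyl oxidase, which starts crosslinks in collagen and elastin, was dimmer, with 116, 208 and 239, and lowest in replicate 1. Loxl4 did not exceed the background in all 3 arrays (104, 89.0 and 122).

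Small leucine-rich proteoglycans, which bind collagen fibrils and set their diameter, differed between the pools. Dcn (decorin), Bgn (biglycan) and Lum (lumican) had mean intensities of 5222 ± 1441, 4642 ± 800.1 and 4614 ± 1546. Decorin measured 6057, 3558 and 6050.2, and biglycan 4601, 3863 and 5462. In each of these genes replicate 2 was lowest. Asporin, Aspn, had 1932, 872 and 2497. Prelp had 1295, 384 and 1769.7, and Ogn (osteoglycin) 296, 144 and 464. These 3 of the 8 members above the background spanned over 2-fold, against 2.73% of all genes above it, with replicates 1 and 3 both high. All 8 members were lowest in replicate 2, where 36.1% of all genes above the background were lowest. Their median there was -0.86 on the log2 scale from the mean of the other arrays. With replicate 2 left out 0 of 8 spanned over 2-fold, and over all genes 53 did, against 327 with it. The corneal member Kera (66.5, 40.6 and 41.3) and Omd (63.4, 42.3 and 56.7) were below the background.

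Versican, hyaluronan and the large proteoglycans form the hydrated middle layer of a valve. Here 15 of 18 genes were above the background, with Vcan, the large hyaluronan-binding proteoglycan, at 1332, 1636 and 1265. Sdc2 and Gpc3, which carry heparan sulphate at the cell surface, averaged 947 ± 106 and 706 ± 86.9. Tnc (tenascin C) had 507, 1015 and 362, and Cd44, the hyaluronan receptor, 447, 904 and 452. Both spanned over 2-fold and were highest in replicate 2, and with replicate 2 left out neither did. The list sat opposite the small proteoglycans, since 9 of 15 members were highest in replicate 2 against 38.5% of all genes above the background. Has3, a hyaluronan synthase, was below the background (65.2, 81.5 and 64.7).

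Elastic fibre genes had a median of 404, with 12 of 14 above the background. Eln, elastin itself, had 560.0, 1058 and 738. Fbln2, a fibulin that lies on elastic fibres and basement membranes, had 1307, 1165 and 1565, and Ltbp1, which holds latent TGF-beta on microfibrils, 917, 1042 and 1036. Of the 12, Fbln5, needed for elastin assembly, was the 1 member to span over 2-fold, at 802, 549.9 and 1625, with replicate 3 high. Fbln1 had 437, 228 and 351. The 2 genes that passed the background in only some pools, Efemp1 (139.6, 74.9 and 159.9) and Mfap5 (71.0, 178 and 91.6), also spanned over 2-fold.

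Adhesive and matricellular glycoproteins had 17 of 18 genes above the background and 7 above the 90th percentile. Igfbp7, a secreted protein of vessel walls that binds insulin-like growth factors weakly, had 4115, 3599 and 4958. Fn1, fibronectin, the scaffold on which other matrix is laid, had 1893, 2507 and 2705, and Thbs1, thrombospondin 1, 1391, 2215 and 2089.5. For both genes the lowest pool was replicate 1. Thbs4 (209, 459.9 and 150.2) and Sparcl1 (465, 742 and 320.3) spanned over 2-fold and were highest in replicate 2. Vtn, vitronectin, which is made mainly by the liver, was below the background (69.9, 73.0 and 73.1).

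Of 23 genes of matrix proteases and their inhibitors, 17 were above the background and 15 at the stricter level. Of all genes 60.2% and 44.6% were. Timp1, Timp2 and Timp3, the tissue inhibitors of metalloproteinases, averaged 3021 ± 1048, 2362 ± 722 and 1856 ± 261. Timp1 had 2091, 4156 and 2816, highest in replicate 2, while Timp2 had 2661, 1538 and 2887, lowest there. Mmp2, the gelatinase of mesenchymal cells, had 3208, 1416 and 2202 and spanned over 2-fold. The collagen-degrading cathepsin Ctsk had 237, 733 and 168, with replicate 2 alone high, and Adamts5, a versican- and aggrecan-cleaving protease, 233, 99.6 and 303, with replicate 2 alone low. Mmp13 (51.6, 54.1 and 54.1) and Mmp10 (66.6, 66.6 and 65.0) were below the background in every pool.

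Of the 9 genes that restrain mineralization or handle pyrophosphate, 7 were above the background, and 4 at the stricter level. Over all genes these shares were 60.2% and 44.6%. Mgp was the brightest (above). Ank, the pyrophosphate transporter, had 1212, 1260.0 and 1202, within a narrow band. Abi3bp, a matrix-binding protein, had 1577, 502 and 1309, and Ahsg, fetuin A, which the liver secretes and which blocks calcium phosphate crystals, 497, 119 and 401. In these 2 genes replicate 2 alone was low, and both spanned over 2-fold.

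Cartilage genes were about as bright as the average gene, and bone genes were dimmer. Of 18 cartilage genes 11 (61.1%) were above the background, against 60.2% of all genes, and their median of 140.1 stood beside 138 over all genes. The brightest was Sox9, the transcription factor of cartilage and of valve mesenchyme, at 819, 643 and 677. The type IX chains Col9a2 and Col9a3 averaged 269 ± 10.8 and 296 ± 14.6, while the matrilins Matn1 (43.4, 48.6 and 48.6) and Matn3 (57.0, 60.8 and 59.1) were below the background. Of 10 bone genes 4 were above it, again against 60.2% of all genes, at a list median of 80.1. Those 4 were Atf4 (642 ± 144) and Mef2c (375 ± 22.7), which many tissues use, and the dimmer Sost and Alpl, at 141 ± 7.96 and 119 ± 11.3. Only Atf4 and Mef2c also passed the stricter level. Ibsp, bone sialoprotein (32.1, 35.2 and 31.3), and Phex, the endopeptidase of osteocytes (36.0, 38.6 and 38.3), were near the receptor median in each pool.

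**Figure D2:**
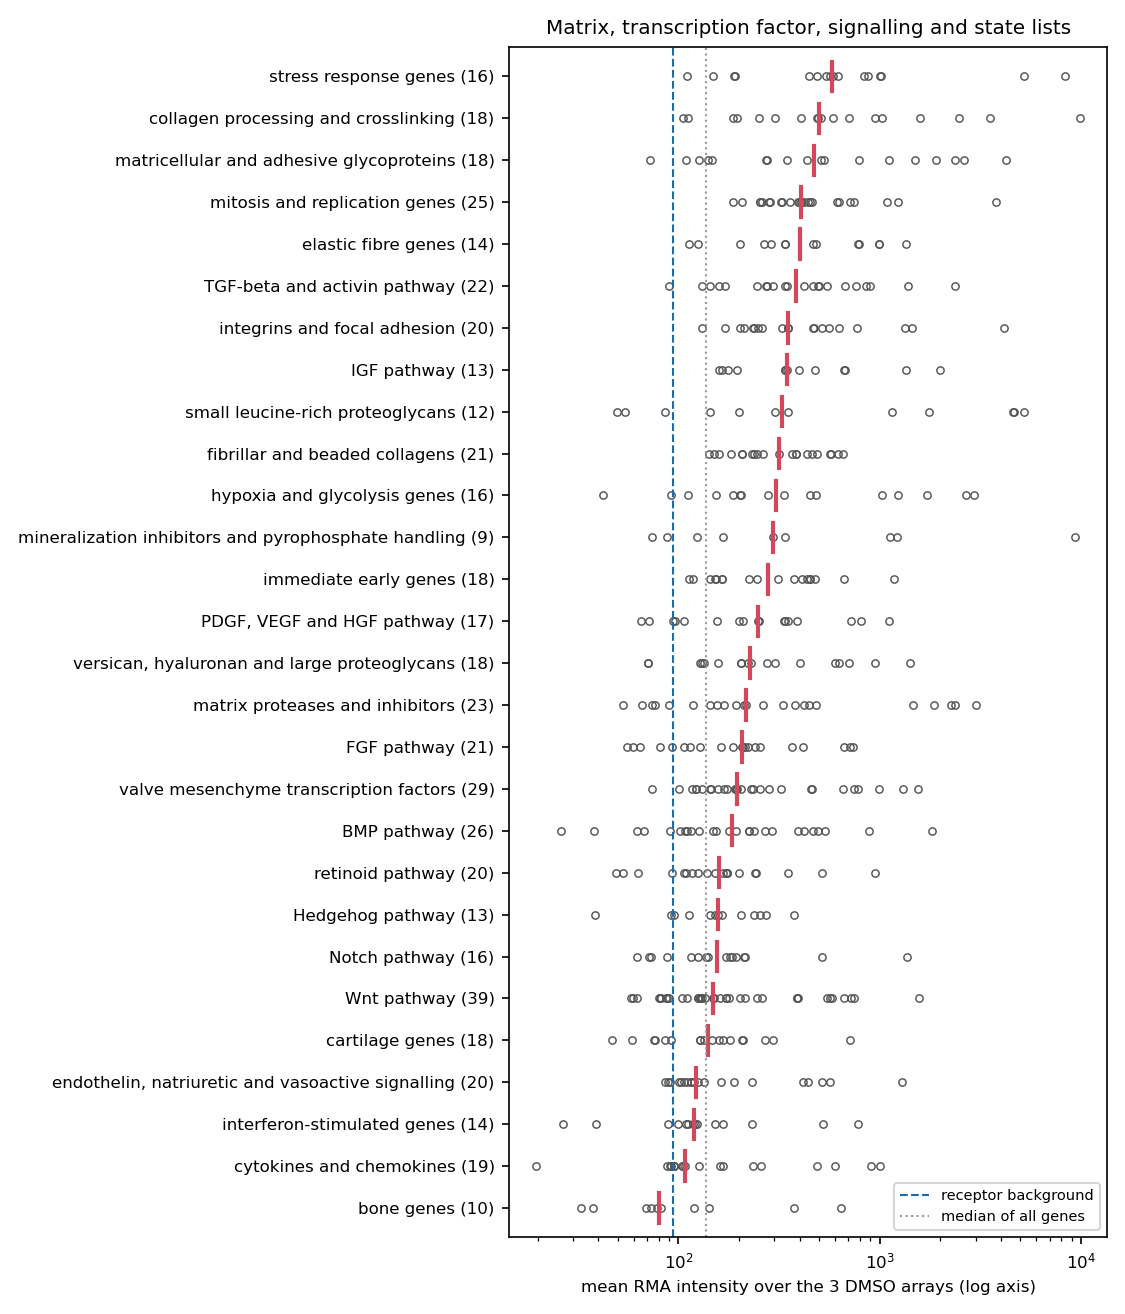
Each circle is a gene of the list named at the left (genes measured in parentheses), at its mean RMA intensity over the 3 DMSO arrays (log axis), and each red bar is the list's median. The lists of stress response, collagen processing and matricellular genes have the highest medians, and the bone list is the 1 whose median is below the receptor background (dashed line at 94.6).

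Transcription factors of valve mesenchyme were nearly all detected, 28 of 29 above the background and 18 above the stricter level. Tbx20, which endocardial cushions and myocardium need, had 1559.9, 986 and 2117 and spanned over 2-fold, lowest in replicate 2. Prrx1, a homeobox factor of connective tissue mesenchyme, had 1329, 1322 and 1272. The homeobox cofactors Meis1 and Meis2 averaged 785 ± 18.8 and 989 ± 144. Scx, scleraxis, a tendon factor that also acts in valve progenitors, had 442, 187 and 342, lowest in replicate 2, and Erg, an ETS factor of endothelium, had 155, 323 and 137, highest there. Tbx5, a factor of the heart and forelimb, was below the background (72.9, 65.4 and 83.2).

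Among the signalling lists the TGF-beta and activin pathway had the highest median, with 21 of 22 members above the background and an intensity of 384. Among ligands, Inhba, the subunit that forms activin A, had 645, 2775 and 719. Replicate 2 alone was high, and the gene was among the 20 with the widest range of those above the background. The receptor Tgfbr1 had 969, 892 and 838, and the co-receptor Tgfbr3 556, 318 and 392. Smad2, which carries the signal to the nucleus, differed little between pools (843, 863 and 849). Fstl1, a secreted follistatin-like protein, was the brightest member (2147, 2195 and 2738).

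BMP genes had 20 of 26 members above the background, against 60.2% of all genes. Of these 0 spanned over 2-fold, where 2.73% of all genes above the background did. The ligands Bmp2 (222, 297 and 153) and Bmp4 (306, 398 and 558) were the widest, with Bmp4 highest and Bmp2 lowest in replicate 3. Their receptors Bmpr2 and Bmpr1a averaged 1816 ± 284 and 884 ± 208. Bmp10, a ligand of trabecular myocardium, and the receptor Bmpr1b were below the background (25.1, 27.7 and 25.2, and 35.3, 45.6 and 33.3). Smad5, a transducer, and Id2, a target, averaged 534 ± 37.1 and 494 ± 56.

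Of 39 Wnt genes, 28 were above the background and 17 at the stricter level, against 60.2% and 44.6% of all genes. The bright members were intracellular or receptors: Ctnnb1, beta-catenin, had 1647, 1630.3 and 1439.6, the co-receptor Lrp6 752, 794 and 688 and the transcription factor Tcf7l2 730.1, 842 and 598. The secreted antagonists Sfrp1 (714, 356 and 925) and Dkk3 (506, 251 and 405) spanned over 2-fold, both lowest in replicate 2. Wnt7a (58.4, 58.3 and 62.4) and Sfrp5 (44.8, 64.8 and 64.8) were below the background.

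Of 16 Notch genes 12 were above the background (7 at the stricter level), against 60.2% (44.6%) of all genes. Rbpj, the DNA-binding partner of the cleaved receptor, had 1329, 1460.4 and 1329, and the receptor Notch2 558, 553 and 439.8. The ligands Jag1 (151, 238 and 253) and Dll4 (98.99, 165 and 110) had the widest ranges, and both were lowest in replicate 1. Of the 12 members above the background 9 were highest in replicate 2, against 38.5% of all genes and at the stricter level 5 of 7 against 40.2%. The targets Heyl and Hey2 differed in brightness, with 209.7, 247 and 178 for the first and 34.6, 71.3 and 80.8, below the background, for the second.

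Of 21 FGF genes 16 were above the background, against 60.2% of all genes. Of these 0 spanned over 2-fold, where 2.73% of all genes above the background did. Their median SD of log2 intensity was 0.10, against 0.13 over all genes above the background. Etv5, a transcription factor that FGF signals induce, had 726, 789.7 and 702, and the receptor Fgfr1 737, 739 and 653. The ligand Fgf2 had 586, 823 and 586. Dusp6, a phosphatase that ERK signalling induces, had 299.6, 486 and 319.7, highest in replicate 2 as Fgf2 was. The ligands Fgf12 and Fgf16 were below the background.

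All 13 IGF genes were above the background. The ligand Igf1 had 677, 507 and 831, and the receptors Igf2r, which clears Igf2, and Insr averaged 1996 ± 513 and 1357 ± 191. The binding proteins Igfbp5 (296, 115 and 119) and Igfbp3 (214, 508 and 323) spanned over 2-fold in opposite ways, Igfbp5 highest in replicate 1 and Igfbp3 in replicate 2. Grb10, an imprinted adaptor that damps these receptors, averaged 664 ± 62.1.

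In the PDGF, VEGF and HGF list 12 of 17 genes were above the background. Besides Pdgfra, the bright members were Nrp1, a co-receptor for VEGF and semaphorins (635, 1036 and 764), Pdgfrb, the receptor of mural cells and fibroblasts (819, 699.5 and 657), and the ligand Pdgfa (388, 345 and 438). Flt1, a VEGF receptor of endothelium, had 248, 496 and 310.5, highest in replicate 2. Flt4, the receptor of lymphatic endothelium, was below the background, at 48.3 to 80.0.

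Retinoid genes matter here because the treatments of the series act on this pathway, and these pools had no added ligand. Of 20 genes 14 were above the background, and 8 at the stricter level, against 60.2% and 44.6% of all genes. Retinol is oxidized by Rdh10 (347, 401 and 304) and then by Aldh1a1 (291, 142 and 293), while Dhrs3 (630.2, 282 and 636) reduces retinal back. The receptor Rarb, itself a retinoid target, had 359, 147 and 212, and the binding protein Crabp1 146, 110.4 and 261. Rarb, Aldh1a1, Dhrs3 and Crabp1 were lowest in replicate 2. All 4 spanned over 2-fold, against 2.73% of all genes above the background, and none of them did with replicate 2 left out. Fabp5, a fatty acid-binding protein that can carry retinoic acid, was the brightest (1109, 635 and 1105) and was also lowest there. The list did not lean as a whole: of 14 members 7 were lowest in replicate 2, against 36.1% of all genes, and 5 were highest there, against 38.5%. The median of the 14 in replicate 2 was -0.07 log2 from the mean of the other arrays. Cyp26a1, the enzyme that degrades retinoic acid and is strongly induced by it, was below the background in every pool (47.9, 54.6 and 43.8).

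Hedgehog genes had 10 of 13 members above the background, with the signal transducer Smo at 379.7, 369 and 375, the receptor and target Ptch1 at 276, 245 and 241 and the transcription factor Gli3 at 306, 231 and 284. None spanned over 2-fold. Of all genes 60.2% were above the background, and 2.73% of those spanned over 2-fold. The ligand Dhh was at 89.9, 97.2 and 88.1, so it did not exceed the background in every array, and the antagonist Hhip was at 35.8, 39.2 and 40.5.

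Of 20 genes of endothelin, natriuretic and other vasoactive signalling, 14 were above the background and 6 at the stricter level. Of all genes 60.2% and 44.6% were. Ace, the angiotensin-converting enzyme, had 1173, 1116 and 1608, and Npr2, the receptor for C-type natriuretic peptide, 608, 393 and 558. Ptgs2, the inducible cyclooxygenase, had the second widest range of the named genes above the background in every pool, with 442, 1091 and 159, and no 2 pools lay within 2-fold of each other. Ptgis, prostacyclin synthase, downstream of it, had 356, 546 and 414, in a narrower band but again highest in replicate 2. Edn1, endothelin 1, had 133, 186 and 251, lowest in replicate 1.

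All 20 integrin and focal adhesion genes were above the background. Itgb1, the beta chain shared by most collagen and fibronectin receptors, had 4033, 4100.0 and 4330.3, and Itgav 1443, 1533 and 1351. Itga5, the fibronectin receptor chain, had 249, 488 and 240.4, and Itga8 312, 192 and 554. These 2 spanned over 2-fold, Itga5 highest in replicate 2 and Itga8 in replicate 3. On the list 14 of 20 were highest in replicate 2 against 38.5% of all genes, and 0 were highest in replicate 1.

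The cultured valve held dividing cells' transcripts. All 25 mitosis and replication genes were above the background and 16 were in the upper quartile, with a median of 405. Pcna, the replication clamp, had 3436, 4626 and 3309, Top2a, the topoisomerase of mitotic chromosomes, 1007, 1342 and 1373, and Ccnb2, cyclin B2, 968, 886 and 1413. None of the 25 spanned over 2-fold, where 2.73% of all genes above the background did. Among the 25, 19 were lowest in replicate 1, where 35% of all genes were lowest, and 16 were highest in replicate 2, against 38.5% of all genes.

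Genes of stress were bright, as were some of glycolysis. All 16 stress response genes were above the background, with a median of 577 that was the highest of the 28 lists other than cell type markers. The endoplasmic reticulum chaperones Hsp90b1 and Hspa5 averaged 8312 ± 119 and 5232 ± 377, and Ddit3, a transcription factor of the unfolded protein response, and Hmox1, haem oxygenase 1, averaged 1002 ± 99.1 and 1018 ± 164. Hspa1a, the inducible heat shock protein, had 215, 898 and 218, with replicate 2 alone high, and the metallothionein Mt1 1139, 530.4 and 944, with replicate 2 lowest. Of the hypoxia and glycolysis list 14 of 16 were above the background, with Pgk1 and Aldoa, both glycolytic enzymes, at 2929 ± 276 and 2678 ± 265. Car9, a carbonic anhydrase that low oxygen induces strongly, was below the background (42.6, 37.6 and 47.2).

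Immediate early genes, which respond to serum, growth factors or handling within an hour, had 17 of 18 members above the background. Egr2 had 1208, 1607 and 738, Myc 515, 1155 and 331 and Egr1 284, 659 and 296, and these 3 spanned over 2-fold. In each of them replicate 2 was highest, as it was in 13 of 17 members against 38.5% of all genes. At the stricter level 8 of 12 were highest there, against 40.2% of all genes. Fos itself did not exceed the background in every pool (112, 154 and 88.5).

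Of 19 cytokines and chemokines 9 were above the background and 6 at the stricter level, against 60.2% and 44.6% of all genes. Csf1, the growth factor of macrophages, had 1028, 983 and 997, almost the same in each pool. Ccl2, which draws monocytes, had 1279.7, 673 and 756, highest in replicate 1, and Cxcl12 627, 536 and 630.1. Il6 (16.9, 23.1 and 19.1) was below the receptor median in every pool, and Il1b (98.9, 76.8 and 89.1) did not exceed the background in all of them.

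Interferon-stimulated genes had a median intensity of 120, against 138 over all genes. Of 14 genes 7 were above the background, against 60.2% of all genes. At the stricter level 2 were, Ifi27 (mean 782 ± 83.6) and Bst2 (233 ± 25.3), against 44.6%. Of the 7 members above the background, 3 were highest in replicate 1, 1 in replicate 2 and 3 in replicate 3. Among them 0 spanned over 2-fold, where 2.73% of all genes above the background did. Of all genes above the background 29.1% were highest in replicate 1. Some members that were not above the background in every pool differed more. Ifit3 had 1307, 89.1 and 174, so that replicate 1 was 14.7 times the lowest pool, replicate 2, which lay below the background. Ifit1 (284, 48.8 and 39.3) and Rsad2 (122, 73.7 and 69.3) were highest in replicate 1 too, and both were below the background in replicate 3. Ifit1 and Rsad2 were chosen after their values were seen. Interferon acts on such genes through the interferon-stimulated response element, and 6 of the 9 genes of the list with a RefSeq promoter held the letters GAAANNGAAA on either strand within 250 bases before to 50 after the start, against 3.99% of 27025 genes. The stretches around the match are printed to show the element in the genes that stood out in replicate 1, from RefSeq on GRCm38.p6, 5′ to 3′ on the gene's strand, with the matched letters in capitals (here the reverse complement of the motif). They lie at chr19:34640769-34640828 (plus strand), chr19:34583365-34583424 (plus strand) and chr12:26456538-26456597 (minus strand).
Ifit1: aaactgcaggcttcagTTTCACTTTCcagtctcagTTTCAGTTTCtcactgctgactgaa
Ifit3: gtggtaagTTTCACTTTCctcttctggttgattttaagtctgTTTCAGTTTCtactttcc
Rsad2: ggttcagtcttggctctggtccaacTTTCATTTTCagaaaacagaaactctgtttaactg
A match is a description of these letters and not evidence of binding.

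The marker lists show which other cell types the pools held. Of 22 cardiomyocyte markers 21 were above the background, with 10 in the upper quartile and 6 above the 90th percentile. Tnnt2 had 9589.8, 6090.3 and 9573, at the 99.9th percentile. Actc1, cardiac actin, had 5960.1, 1838 and 3381, and Myl2, the ventricular myosin light chain, 4646, 2362 and 2478. In all 3 genes replicate 2 was lowest. Atp2a2, the calcium pump of the sarcoplasmic reticulum, had 3148, 2548 and 2360.1, the narrowest of the 4 brightest markers.

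The sarcomere genes set the pools apart. Myh6, the alpha myosin heavy chain, had 778, 138 and 335, and Casq2, which stores calcium in the sarcoplasmic reticulum, 540.3, 96.4 and 194. The 3 pools were ordered alike in both, with replicate 1 high and replicate 2 low. Of the 21 markers above the background, 18 were highest in replicate 1, where 29.1% of all genes were highest, and 17 were lowest in replicate 2, against 36.1%. The median marker in replicate 1 was 0.93 log2 above the mean of the other pools. The summed intensity of the 22 markers was 34999, 18433 and 24112. In this list 9 of 21 spanned over 2-fold, against 2.73% of all genes, and 2 did without replicate 1, 6 without replicate 2 and 8 without replicate 3. How much myocardium each dissection carried was not tested.

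Of the cardiomyocyte genes, Actc1, Myl3 and Myl7 held a CArG box, the serum response factor element of muscle genes, in the RefSeq promoter window (3 of 21 with a promoter, against 1.81% of 27025 genes). The stretches are shown because these genes encode sarcomere proteins that were measured at 3 levels: Actc1 bright, Myl3 intermediate (1049.8, 649.6 and 450.4) and Myl7, the atrial light chain, not above the background in every pool (93.1, 116 and 112). The box is in capitals, on GRCm38.p6 and the gene's strand, at chr2:114052888-114052947 (minus strand), chr9:110763568-110763627 (plus strand) and chr11:5898809-5898868 (minus strand). Myl3 was chosen after its values were seen.
Actc1: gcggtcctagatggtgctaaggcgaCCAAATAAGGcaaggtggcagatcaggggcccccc
Myl3: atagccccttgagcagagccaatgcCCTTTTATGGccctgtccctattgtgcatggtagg
Myl7: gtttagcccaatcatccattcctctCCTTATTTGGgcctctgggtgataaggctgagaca

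Endothelial markers had a median intensity of 151 against 138 over all genes, with 13 of 20 (65%) above the background and 7 at the stricter level, against 60.2% and 44.6% of all genes. Cd34, which fibroblast-like cells also carry, was the brightest (1745, 2149 and 2462). Cdh5, the cadherin of endothelial junctions, had 238, 967 and 282, and Pecam1 139, 432 and 207. Replicate 2 was far above both other pools in these 2 genes. Of the 13 markers above the background they were the 2 that spanned over 2-fold, and neither did with replicate 2 left out. Emcn (70.5, 306 and 120.3) and Kdr (79.6, 167 and 73.2), above the background in only some pools, also spanned over 2-fold and were highest in replicate 2. Eng, a TGF-beta co-receptor, was more even (514, 467 and 440.2), and Egfl7 had 249, 432 and 324. On the list 8 of 13 were highest in replicate 2 and 10 of 13 lowest in replicate 1, against 38.5% and 35% of all genes. At the stricter level these were 3 and 4 of 7, against 40.2% and 34.4%. Sox17, a factor of arterial endothelium, was below the background (56.8, 69.8 and 51.6).

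Macrophage markers had 13 of 17 members above the background (7 at the stricter level), against 60.2% (44.6%) of all genes. Lyz2, lysozyme of myeloid cells, had 1412, 464 and 1797, Cd68, a lysosomal glycoprotein, 699.9, 277 and 881, and Tyrobp, a signalling adaptor, 962, 894 and 1566. Replicate 2 was lowest and replicate 3 highest for each. Of the 13 markers, 11 were highest in replicate 3 against 32.4% of all genes, and at the stricter level 7 of 7 against 31.9%. Lyz2 and Cd68 were 2 of the 3 members that spanned over 2-fold, and with replicate 2 left out 0 did. Cd163 (50.2, 52.5 and 51.1) and Itgam (48.2, 69.5 and 65.4) were below the background.

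Smooth muscle and myofibroblast genes had 10 of 14 members above the background. Acta2, smooth muscle actin, had 866, 1209.8 and 2143, Tagln, transgelin, 281, 328 and 755 and Myl9, the regulatory light chain, 612, 877 and 1370.1. Each was highest in replicate 3 and lowest in replicate 1, as were 6 and 8 of the 10 members above the background, against 32.4% and 35% of all genes. Tpm1, a tropomyosin that other cells also express, was bright and even (2785, 2656 and 2617). Myocd, the coactivator of the smooth muscle programme, was below the background (87.5, 63.0 and 69.5). Of these 10 genes 4 spanned over 2-fold, against 2.73% of all genes, and 1, 3 and 1 did without replicate 1, 2 and 3.

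Other cell types left little signal. Above the background were 2 of 11 lymphocyte genes, 2 of 12 mast cell and neutrophil genes, 2 of 10 neuronal genes, 2 of 8 adipocyte genes, 2 of 5 erythroid genes and 4 of 12 mesothelial and epithelial genes. As a gauge, 8 of 26 genes of liver, pancreas, retina and testis were above the same level, and 2 at the stricter one, so a dim gene above 94.6 need not be expressed. At the stricter level the lymphocyte list had 0 members left and so had the mast cell and neutrophil list, though Kit, a receptor of mast cells and melanocytes, reached 249.9 in replicate 2 (106, 249.9 and 119). The bright neuronal members were Tubb3 (1472, 1075 and 1454) and Uchl1 (411, 666 and 413), while Elavl4 and Stmn2, which are narrower markers of neurons, were below the background.

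Pigment and nerve sheath genes were partly detected. Melanocytes are known to populate murine valves, and Dct, an enzyme of melanin synthesis, had 376, 237 and 109, with replicate 3 lowest, whereas Tyr, the rate-limiting enzyme, had 33.8, 26.9 and 28.1, about the receptor median. Pmp22, a myelin protein that fibroblasts also express, had 1097, 781 and 985, and Sox10, the neural crest factor, 158, 145 and 158. On the melanocyte list 4 of 8 genes were above the background and on the Schwann cell list 4 of 9, against 60.2% of all genes. Without replicate 1 the Schwann cell count was 7 of 9. At the stricter level, with all pools, 1 melanocyte gene and 3 Schwann cell genes were left. Of 6 tendon genes 4 were above the background, but Tnmd, the tenocyte marker, was not (61.3, 68.3 and 68.1).

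**Figure D3:**
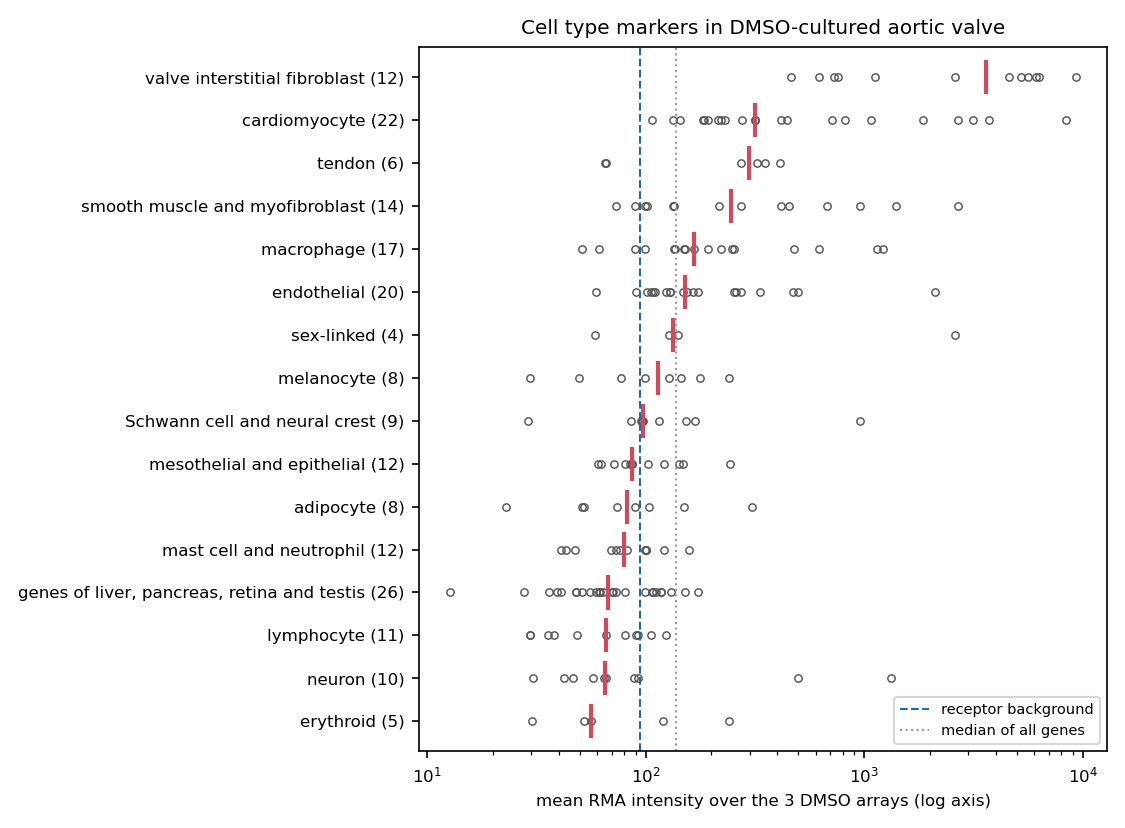
Circles are marker genes of the cell type at the left (genes measured in parentheses) at their mean RMA intensity over the 3 DMSO arrays (log axis), with the list's median as a red bar. The interstitial fibroblast markers lie far to the right of the receptor background (dashed line), and cardiomyocyte, smooth muscle, macrophage and endothelial markers straddle the median of all genes. Medians left of the dashed line are those of the lymphocyte, neuron, erythroid, adipocyte, mast cell and neutrophil, and mesothelial and epithelial lists. The genes of liver, pancreas, retina and testis also have their median there.

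Sex-linked transcripts differed between the pools. Xist, the RNA that coats the inactive X chromosome, had 2903, 2589 and 2294. The Y-linked genes Eif2s3y (100.4, 22.6 and 298), Kdm5d (112, 70.2 and 202) and Uty (46.1, 17.2 and 113) were each highest in replicate 3 and lowest in replicate 2. In replicate 2 all 3 were below the background, and without it Eif2s3y and Kdm5d were above it in both other pools.

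Spread between pools was small for most genes. Among the 11995 genes above the background the median SD of log2 intensity was 0.13, and 327 genes (2.73%) spanned over 2-fold between the highest and the lowest pool. Of the 327, replicate 2 was lowest in 179 and highest in 126. It stood over 2-fold below both other pools in 63 genes and over 2-fold above both in 33, against 3 and 14 genes for replicate 1 and 5 and 6 for replicate 3. Without replicate 2, 53 genes spanned over 2-fold, against 218 without replicate 1 and 196 without replicate 3. A range over 2 pools is narrower than over 3 by construction, but the loss was largest for replicate 2.

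The steadiest of the 1000 brightest genes included Rab10, a GTPase of vesicle traffic, with 1911.28 in each of the 3 arrays, and Septin11, a cytoskeletal GTPase, with 1551.74 in each. Identical values to this precision occurred in 197 probe sets, so the smallest SDs understate the measurement error. Ndfip1, Gtf3c6, Rtn3, Clint1, Sh3glb1, Slc25a3, Malsu1 and Epb41l2 completed the 10, all with an SD of log2 under 0.01.

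Among named genes above the background in every pool, the widest range belonged to Ucma, a secreted Gla protein of cartilage, with 962, 129 and 242, or 2.90 on the log2 scale, and replicate 1 alone high. Sprr1a, a small proline-rich protein that stressed cells make, had 153, 839.8 and 152, and Ggct, an enzyme of glutathione turnover, 249, 1076 and 380.1. For both, replicate 2 alone was high. The opposite pattern, replicate 2 alone low, was seen in Gas6, a ligand of the TAM receptors (1773, 400.3 and 1077), Gpnmb, a glycoprotein of macrophages and pigment cells (812, 187 and 597), and Fuca2, a fucosidase (764, 163 and 628). Itgbl1, a secreted protein with integrin-like repeats, had 1034, 312 and 1674 and Capn6, a member of the calpain family, 1454, 285 and 666, both lowest in replicate 2. In Mmp12, macrophage elastase (937, 213 and 476), no pool lay close to another, and in Ecrg4 (418, 275 and 1085) replicate 3 alone was high.

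**Figure D4:**
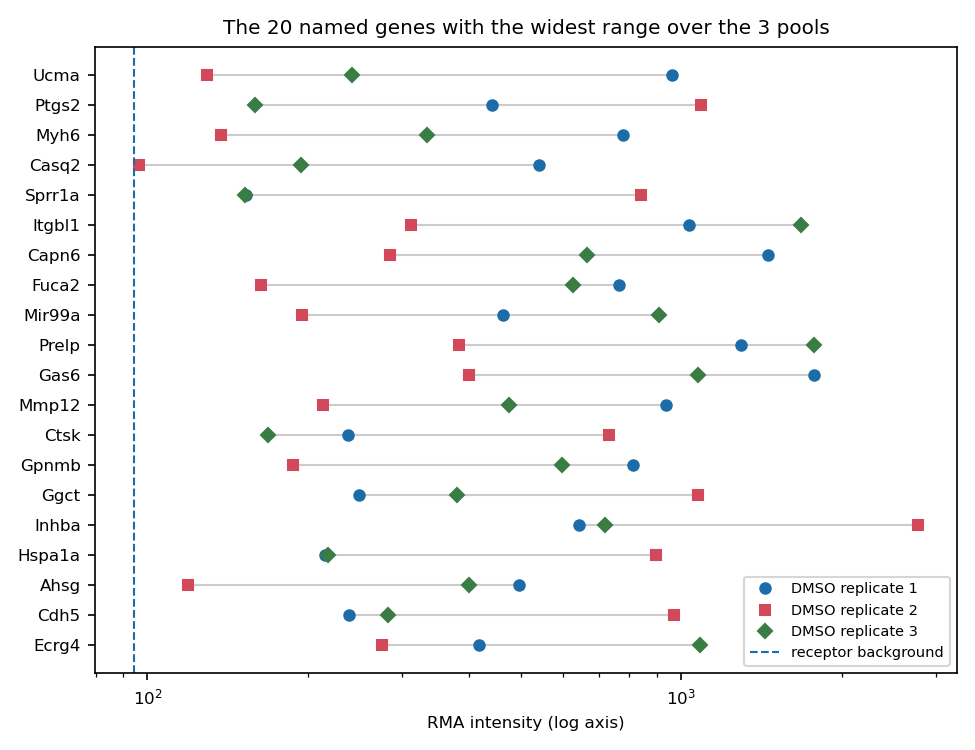
For each of the 20 named genes with the widest range among those above the background in every pool, the RMA intensity (log axis) in the 3 DMSO pools is shown, joined by a grey line. Replicate 2 (squares) is at one end in each of the 20 genes: highest in Ptgs2, Sprr1a, Ctsk, Ggct, Inhba, Hspa1a and Cdh5, and lowest in the other 13.

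Among these genes was Mir99a, 1 of 2 miRNA genes that varied, out of 296 with a probe set of their own and 97 above the background. Its probe set, which reads the precursor or its host transcript and not the mature miRNA, had 464, 195 and 909. The second was Mirlet7a-1, with 206, 115 and 312, and in both genes replicate 3 was highest and replicate 2 lowest. The mature sequences, from RefSeq on GRCm38.p6, are printed 5′ to 3′ with the seed (bases 2 to 8) in capitals, beside those of relatives with the same seed, to show which of them differ only outside the seed.
Mir99a: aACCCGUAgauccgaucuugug
Mir99b: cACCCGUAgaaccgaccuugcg
Mir100: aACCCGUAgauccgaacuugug
Mirlet7a-1: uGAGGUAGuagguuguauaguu
Mirlet7c-1: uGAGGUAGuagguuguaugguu
The 5p arm of Mir99a lies at chr16:77598940-77598961 (plus strand) and that of Mirlet7c-1 at chr16:77599672-77599693, under 1000 bases away on the same strand. Mirlet7c-1 had 69.4, 22.4 and 68.4, below the background but with replicate 2 lowest as well. Mir99b (chr17:17830194-17830215, plus strand) had 263, 235 and 247, which is steady, and Mir100 (chr9:41531437-41531458, plus strand) was below the background at 64.4, 39.8 and 40.1. The 5p arm of Mirlet7a-1 lies at chr13:48538239-48538260 (minus strand). Mir99a and Mir99b thus share a seed, while the probe set of the first spread widely and that of the second did not. The relatives were chosen after the values of Mir99a were seen.

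To see whether a gene that spread here also spread elsewhere, the same genes were measured within the 3 ATRA arrays and within the 3 LE540 arrays, each about its own group. Of the 327 genes, 145 (44.3%) spanned over 2-fold within the ATRA arrays and 163 (49.8%) within the LE540 arrays, where 5.53% and 10.7% of all 11995 genes did. Of the 126 varying genes highest in DMSO replicate 2, 64 (50.8%) were also highest in replicate 2 of both other groups, and among all 4614 genes highest there 1054 (22.8%) were. Of the 101 highest in replicate 3, 41 (40.6%) were highest in replicate 3 of both other groups, against 718 of 3892 (18.4%) of all genes highest there. Of the 100 highest in replicate 1, 6 were highest there in both other groups, against 638 of 3489 (18.3%). Of the 179 lowest in replicate 2, 37 (20.7%) were lowest there in both other groups, against 802 of 4332 (18.5%) of all such genes.

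Named genes of both kinds were found. Cdh5 was highest in replicate 2 of each group, with 387, 1883 and 394 in the ATRA arrays and 159, 794 and 498 in the LE540 arrays. Inhba had 2530.2, 5776 and 3318 and 654, 1322 and 648, and Sprr1a 1349, 3429 and 1303 and 131, 548 and 192, with replicate 2 highest throughout. By contrast Ucma had 127, 106 and 145 and 219, 219 and 255, and Myh6 152, 322 and 126 and 186, 269 and 544, where replicate 1 was not the highest.

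Lists did so too. Relative to the other arrays of its own group, replicate 2 had endothelial markers higher by a median of 0.14 log2 in DMSO, 0.60 in ATRA and 0.37 in LE540, with 9, 11 and 12 of the 13 genes positive. For mitosis and replication genes the medians were 0.19, 0.23 and 0.86, with 18, 22 and 25 of 25 positive. Of all genes above the background 50.6%, 52.2% and 49.8% were positive in these arrays. Cardiomyocyte markers did not keep their order, with medians in replicate 2 of -0.51, 0.97 and -0.09. Nor did macrophage markers, at -0.37, 0.42 and 0.46. The small leucine-rich proteoglycans in replicate 2 had medians of -0.86, -0.23 and -0.13, with 0, 2 and 2 of 8 positive, but in the LE540 arrays replicate 1 was lower still, at -0.67 with 1 of 8 positive. What the equal replicate numbers share was not tested.

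**Figure D5:**
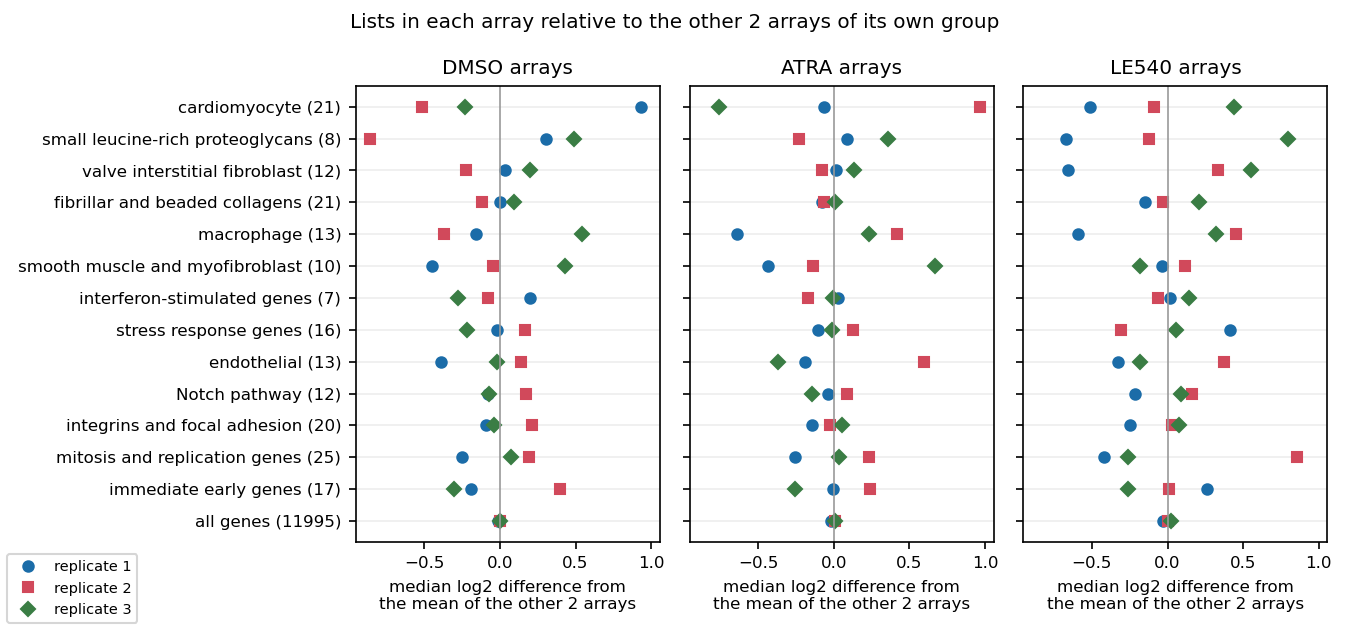
For each list (members above the background in the DMSO arrays in parentheses), the median log2 difference of each array from the mean of the other arrays of its group is shown, for DMSO, ATRA and LE540 arrays. In DMSO, cardiomyocyte markers are farthest right in replicate 1 and small leucine-rich proteoglycans farthest left in replicate 2, and endothelial and mitosis genes in replicate 2 (squares) lie right of 0 in all 3 groups.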

How the data were processed

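Each array held the pooled aortic valves of 5 to 6 pups. RNA was amplified and labelled with Nugen kits, per the labels' protocols. The deposited intensity values are those of RMA, which corrects background, quantile-normalizes arrays and summarizes probes. Affymetrix Expression Console 1.1 is named in the submitters' processing notes, while the genome build is not given in the sources used here. Of 28270 probe sets, 21780 list 1 symbol, 1617 several and 4873 none. Each of 19934 genes was represented by its brightest single-symbol probe set over the DMSO arrays, which mattered for 996 genes. Of the gene identifiers, 21689 were found in the RefSeq table and 0 symbols changed.

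Log2 was taken and each gene was described by its mean, SD and range in Python 3.11.15 with pandas 2.3.3 and numpy 2.4.6. No test was made, since the 3 arrays form 1 group, and their number limits the precision. Ties in the highest or lowest array went to the lower replicate number. The scripts were tested on simulated data with known answers. The members and the 44 lists (16 of them markers, 697 genes measured and 56 symbols without a probe set) were chosen with earlier results of these data known. Named genes were the 25 brightest and the 20 with the widest range (ribosomal protein, mitochondrial, histone, small RNA and unnamed genes passed over), up to 4 bright, 2 wide and 2 dim members of each list, sex-linked genes, the 6 markers of the tissue and the 10 steadiest of the 1000 brightest; others are marked as chosen after their values were seen.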

Additional observations from a re-analysis of the deposited data

How the results depend on the processing

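The count of genes above the background stayed within 1.5 times of 11995 under each alternative tried: other normalizations, the mean over probe sets, the 99th percentile of receptor genes or the median gene as background, several-symbol probe sets, and leaving out each pool. The count of 327 varying genes became 330 under quantile normalization (314 shared) and 330 after a shift to 1 upper quartile (318 shared). It was 1478 at 1.5-fold, 65 at 3-fold and 531 with no filter on dim genes, and between 53 and 218 when 1 pool was left out, lowest without replicate 2. Of the 53, 46 were among the 327. An alternative chosen after seeing the data, above the background in at least 1 array, gave 474. In the list counts above the background, 320 of 352 values stayed within 1.5 times, and most of the 32 others came from the stricter levels, which test brighter genes by construction. In the list counts of varying genes 76 of 396 moved, and in the counts highest or lowest in 1 pool 8 of 84, all under stricter levels, as given beside them. Under quantile normalization the mean intensities of the 52 genes recomputed moved by less than 1 SD. No paired analysis was possible because the results describe 1 group and come from no test between groups that a pairing could enter. The array scale has no depth in counts, and dim probe sets near 94.6 cannot be told from background.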

Other observations

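Genes outside the lists were also among those that differed between pools, and all genes in these paragraphs were chosen after their values were seen. Ptn, pleiotrophin, a heparin-binding growth factor, was among the brightest of the varying genes, with 5755, 1543 and 5533, and replicate 2 alone was low. Replicate 2 was also lowest in the lysosomal protective protein Ctsa (979.5, 504 and 1140.4), the hexosaminidase subunit Hexa (617, 369 and 776), the aspartylglucosaminidase Aga (1837, 675 and 1630.0), apolipoprotein E, Apoe (1795, 622 and 1574), and the cholesterol exporter Abca1 (527, 219 and 403), though the lysosomal protease Ctsk, described above, was highest there. Replicate 2 alone was high in the EGF receptor ligand Hbegf (803, 2114 and 866), the urokinase receptor Plaur (199, 745 and 199) and the cystine transporter Slc7a11 (281, 1039 and 271). Nhp2 (615, 1257 and 666) and Mrto4 (487, 998 and 599.5), which act in ribosome assembly, and the spermidine synthase Srm (531, 1073 and 551) were highest there too. Endothelial genes outside the list went both ways: Sele (297, 808 and 228) and Cd93 (218, 749 and 429.5) were highest in replicate 2 as Cdh5 was, while Gja5, a connexin of arterial endothelium (309.8, 119.9 and 433), and Clec14a (321, 67.0 and 277) were lowest there.

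Requiring signal in every pool leaves out 147 genes that spanned over 2-fold with only some pools above the background. The widest was AI506816, an unnamed transcript, with 101, 1407 and 83.5. Its values were 162, 1735 and 143 in the ATRA arrays and 35.3, 1519 and 27.0 in the LE540 arrays, so replicate 2 was high and both others low in each group. Adgrl4, an endothelial adhesion receptor, had 77.9, 493 and 76.3, with 117, 806 and 129.7 and 70.8, 214 and 94.0 in the other groups, and Emcn, endomucin, 70.5, 306 and 120.3. Dppa3, a germ cell and oocyte gene, had 26.9, 231 and 34.2 and again exceeded the background in LE540 replicate 2 (168), but not in ATRA replicate 2 (37.1). Saa3, an acute-phase protein of macrophages and fibroblasts, had 353, 58.5 and 130.5, high in replicate 1 as Ifit3 was. Epyc, epiphycan, a small leucine-rich proteoglycan of cartilage, had 324, 62.9 and 214, lowest in replicate 2 as the 8 members above the background were.

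Xist and the Y-linked genes also differed across the series. Eif2s3y had 664, 271 and 732 in the ATRA arrays and 579, 75.7 and 701 in the LE540 arrays, and Xist 85.7, 1393 and 326 and 61.6, 1652 and 1361. Replicate 2 had the lowest Eif2s3y in each group. Of the 4873 probe sets with no listed gene, 1999 (41.0%) were above the background in the 3 DMSO arrays, and they are unnamed here.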
